A study of Mus musculus with 26 samples.

Results

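The extracellular proteases of the metalloproteinase families and their tissue inhibitors were examined in motor neuron spheroids. All protein-coding genes named Mmp, Adamts or Timp with a family number were taken, which gave 46 of the 56941 genes listed: 23 matrix metalloproteinases, 19 ADAMTS proteases and 4 TIMP inhibitors. RNA was sequenced in 26 libraries of the HBG3 line of mouse embryonic stem cells. In this line GFP reports the activity of the HB9 promoter, which motor neurons use. The genotype of the line is given as heterozygous blastocysts, its cells were expanded on a feeder layer, and every group rests on this 1 line. Cells were differentiated with retinoic acid and puromorphamine, given CNTF and GDNF, and spheroids of day 8 were plated on a fibrin platform. In the mechanical arm, 4 libraries came from spheroids on a magnetically moved silicone array (actuated, 4 Hz for 30 min each day) and 4 from the same kind of array that was never moved (static). In the biochemical arm, 6 libraries were labelled high intensity, 6 low intensity and 6 biochemical control. The study describes medium conditioned by stimulated or by resting optogenetic muscle, but its sample names cannot be matched to the labels high and low, so these groups are called by their intensity only. The question was how motor neurons respond to the secreted products of exercised muscle and, apart from these, to movement of their substrate. No label says that the libraries of a group came from separate cultures, so p-values measure the spread between these libraries, which may be technical.

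Matrix metalloproteinases are zinc endopeptidases that are made as inactive proenzymes and cut collagens, laminins, proteoglycans and other matrix proteins, either after secretion or at the cell surface. ADAMTS proteases are secreted relatives with thrombospondin repeats, of which some cut proteoglycans such as aggrecan and versican, some trim procollagens and some are tied to fibrillin microfibrils. TIMPs bind the active site of metalloproteinases and block it. In nervous tissue these enzymes are known for their part in axon growth, in the turnover of perineuronal matrix and in the breaching of basement membranes.

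Depth differed widely. The 6 controls had 1457250 to 3771637 counts, the high intensity libraries 243510 to 3971348, the low intensity libraries 1536 to 3602716, the static libraries 613344 to 13162635 and the actuated libraries 7269276 to 9839951. Results are given for all 26 libraries and for 21 deeper libraries, those in which protein-coding genes had more than 1000000 counts (5 control, 4 high intensity, 5 low intensity, 3 static and 4 actuated). A count of 3, the limit that a count of 0 allows, stood for 0.228 to 1.93 CPM (counts scaled to a total of 1000000) in a deeper library. The 7 neuronal markers checked were present in every group, with a summed level of 2715 to 4221 CPM in the deeper libraries (by group beside the results), and all 7 motor neuron markers had counts in every group (79.0 to 183 CPM in sum). All 10 mesenchymal and fibroblast markers, Col1a1 and Pdgfrb among them, also had counts in every group, and their sum differed between groups as given beside the results. In bulk RNA, fewer cells of a type and less RNA per cell cannot be told apart.

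Inhibitors and membrane-bound proteases made up most of the family's transcripts. On the TPM scale, which corrects for gene length, the 4 TIMPs held 35.6% of the summed mean level of the 46 genes over the deeper libraries, the 6 membrane-type metalloproteinases 36.5% and the 19 ADAMTS genes 19.6%. Timp2 stood highest at 51.9 TPM ± 22.6 (SD, n = 21), followed by Timp3 at 40.9 ± 12.6 and Mmp14 at 40.0 ± 25.6. Next came the membrane-type genes Mmp24 at 27.1 ± 7.001, Mmp16 at 22.3 ± 8.44 and Mmp15 at 17.3 ± 4.90, and then the gelatinase Mmp2 at 15.0 ± 15.0. Timp1 (13.5 ± 7.97), Adamts1 (11.9 ± 5.10), Adamts10 (9.85 ± 5.05) and Adamts9 (5.91 ± 2.20) completed the 11 genes with a mean of at least 5 TPM. Neighbours in this order lay within each other's spread, and these SDs run over libraries of all 5 groups. Mmp2 had an SD as large as its mean, with single libraries from 1.30 to 60.6 TPM. Of the other members, 17 had a mean between 1 and 5 TPM and 18 a mean under 1 TPM. TPM values were not used to compare groups, because the most abundant gene, a noncoding RNA, held 22.0% to 54.7% of all TPM in a control library and 9.501% to 36.0% in a high intensity library, which lowers the TPM of every other gene in the controls.

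**Figure D1:**
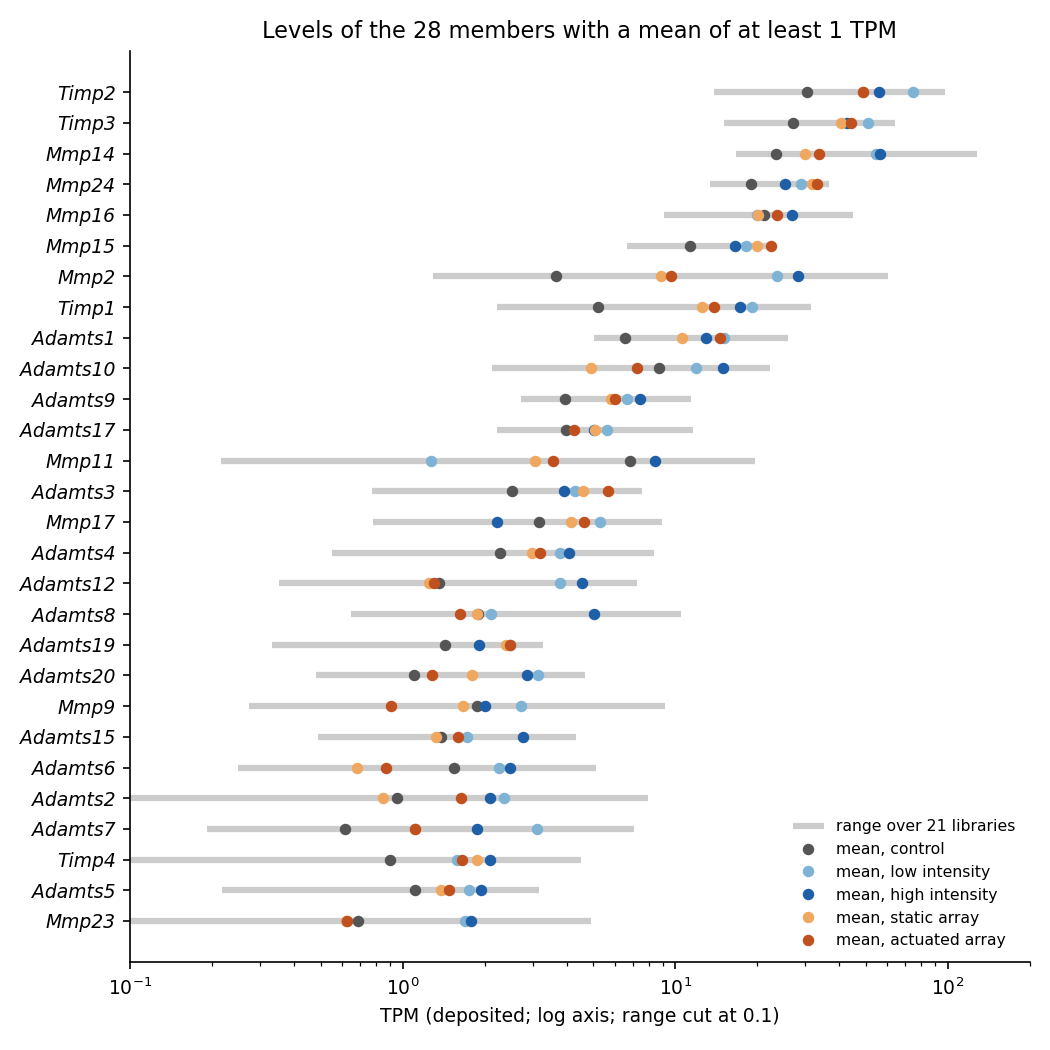
Deposited TPM (horizontal, log axis) of the 28 members with a mean of at least 1 TPM over the 21 deeper libraries. Grey bars span the lowest to the highest library, cut at 0.1 TPM, and points are group means; Timp2, Timp3 and Mmp14 lead, and the control mean is lowest for most genes.

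The secreted collagenases and stromelysins of the gene cluster on chromosome 9 were close to silent. This run of 10 genes, Mmp13, Mmp12, Mmp1b, Mmp3, Mmp1a, Mmp10, Mmp8, Mmp27, Mmp20 and Mmp7, spans 427 kb in the GRCm38 annotation and includes the secreted interstitial collagenases. Together the 10 genes had 126 counts in all 26 libraries, none passed the filter on low counts, and the highest of their mean levels over the deeper libraries was 0.275 TPM. Mmp3 had 28 counts, of which 27 lay in high intensity replicate 3 and 1 in static replicate 3. Mmp10, a stromelysin like Mmp3, had 12 of its 30 counts in that same high intensity library and 7 in low intensity replicate 5.

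The 100 bases before the start of some of these genes are shown because 8 of the 10 cluster genes held a short sequence there. It was found in no other member with a promoter entry. The sequence is the heptamer TGANTCA, where N is any base. This loose pattern includes the binding motif of the AP-1 factors, and its reverse strand fits it too. The match in Mmp20 reads TGAATCA, and those of the other genes read TGAGTCA or TGACTCA. RefSeq (GRCm38.p6) gave promoters of 300 bases for 32 of the 46 members. The 14 without an entry, the expressed Mmp2, Mmp9, Mmp16 and Adamts10 among them, were not examined. The heptamer lay in 8 of the 10 cluster genes and in 0 of the 22 other members with a promoter entry, 18 of which passed the filter on low counts. Over all 32851 RefSeq promoters of that length it lay in 7.81%. The start sites of Mmp3 (chr9:7445722-7445821), Mmp10 (chr9:7502242-7502341) and Mmp13 (chr9:7272414-7272513) are preceded, on the plus strand, by the stretches below, with the heptamer in capitals. It begins 46 bases before the start of Mmp3, 63 before that of Mmp10 and 35 before that of Mmp13. The same stretch of Mmp14 (chr14:54431498-54431597) and of Timp1 (chrX:20870066-20870165), both on the plus strand and both well expressed here, follows for comparison and holds no exact match to TGANTCA. Sites that differ from these letters were not searched for, so a lack of AP-1 sites in Mmp14 or Timp1 is not shown. A match is a description of letters, and no binding was measured.
Mmp3: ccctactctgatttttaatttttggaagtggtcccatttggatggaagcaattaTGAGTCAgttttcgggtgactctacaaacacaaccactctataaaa
Mmp10: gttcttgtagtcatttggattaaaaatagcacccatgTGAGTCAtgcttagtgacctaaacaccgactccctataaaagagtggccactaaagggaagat
Mmp13: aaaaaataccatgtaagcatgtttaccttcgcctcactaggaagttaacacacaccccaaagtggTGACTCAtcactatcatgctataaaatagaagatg
Mmp14: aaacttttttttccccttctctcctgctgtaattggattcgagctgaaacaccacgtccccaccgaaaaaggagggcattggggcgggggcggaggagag
Timp1: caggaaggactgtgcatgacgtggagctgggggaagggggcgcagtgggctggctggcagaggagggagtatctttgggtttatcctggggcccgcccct

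Of the 46 genes, 31 passed the filter on low counts with all libraries (9 metalloproteinases, 18 ADAMTS, all 4 TIMPs) and 31 with the deeper libraries, where Mmp19 entered and Adamts18 left. The 15 that did not pass with all libraries were the 10 genes of the chromosome 9 cluster, Mmp19, Mmp21, Mmp23, Mmp25 and Adamts13. Each gene below was tested with edgeR's quasi-likelihood F-test, and p-values were adjusted over all genes fitted (14907 with all libraries, 14730 with the deeper ones), with 0.05 as the threshold.

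Mmp2 was the only member to pass the threshold between the intensity groups and their controls in either fit. At high intensity and over both groups it also had the largest log2 difference and the smallest p of the tested members in both fits, which was not so at low intensity. In the deeper control libraries it stood at 15.4, 14.8, 5.11, 13.2 and 16.7 CPM (TMM-normalised over all 26 libraries, as are all levels in CPM). At high intensity it stood at 68.8, 93.4, 139.6 and 29.6 CPM. At low intensity it stood at 17.98, 130.8, 12.6, 47.7 and 59.6 CPM. All 4 high intensity libraries lay above all 5 controls, while low intensity replicate 3 lay within the control range and replicate 1 just above it. Mmp2 codes for gelatinase A, which cuts denatured collagen, type IV collagen and other basement membrane proteins. With the deeper libraries Mmp2 rose 6.19-fold at high intensity (log2 fold change 2.63, SE 0.605, edgeR adjusted p = 0.0468). Over both intensity groups together, as the mean of their coefficients, it rose 5.02-fold (log2 2.33, SE 0.547, edgeR adjusted p = 0.0386). At low intensity the value was 4.07-fold (log2 2.03, SE 0.586, edgeR adjusted p = 0.0903), which missed the threshold. With all 26 libraries no call was made: edgeR gave a log2 difference of 2.45 (SE 0.559, adjusted p = 0.0812) for high intensity, of 2.07 (SE 0.561, adjusted p = 0.229) for low intensity and of 2.26 (SE 0.516, adjusted p = 0.0905) for both.

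These calls of Mmp2 lay close to the threshold. At high intensity the call was lost when any 1 of control replicates 1, 2, 3, 5 or 6, high intensity replicates 1, 2 or 3, low intensity replicates 4 or 5, static replicates 1 or 2, or actuated replicates 1, 2 or 4 was left out (log2 2.27 to 2.92 and adjusted p from 0.0202 to 0.21 over the 21 leave-outs); over both groups it was lost without control replicate 1, 2, 3 or 5, high intensity replicate 1 or 3, or low intensity replicate 2 (log2 2.002 to 2.47, adjusted p up to 0.0818). The comparisons of high intensity, of low intensity and of both with control share the same control libraries.

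**Figure D2:**
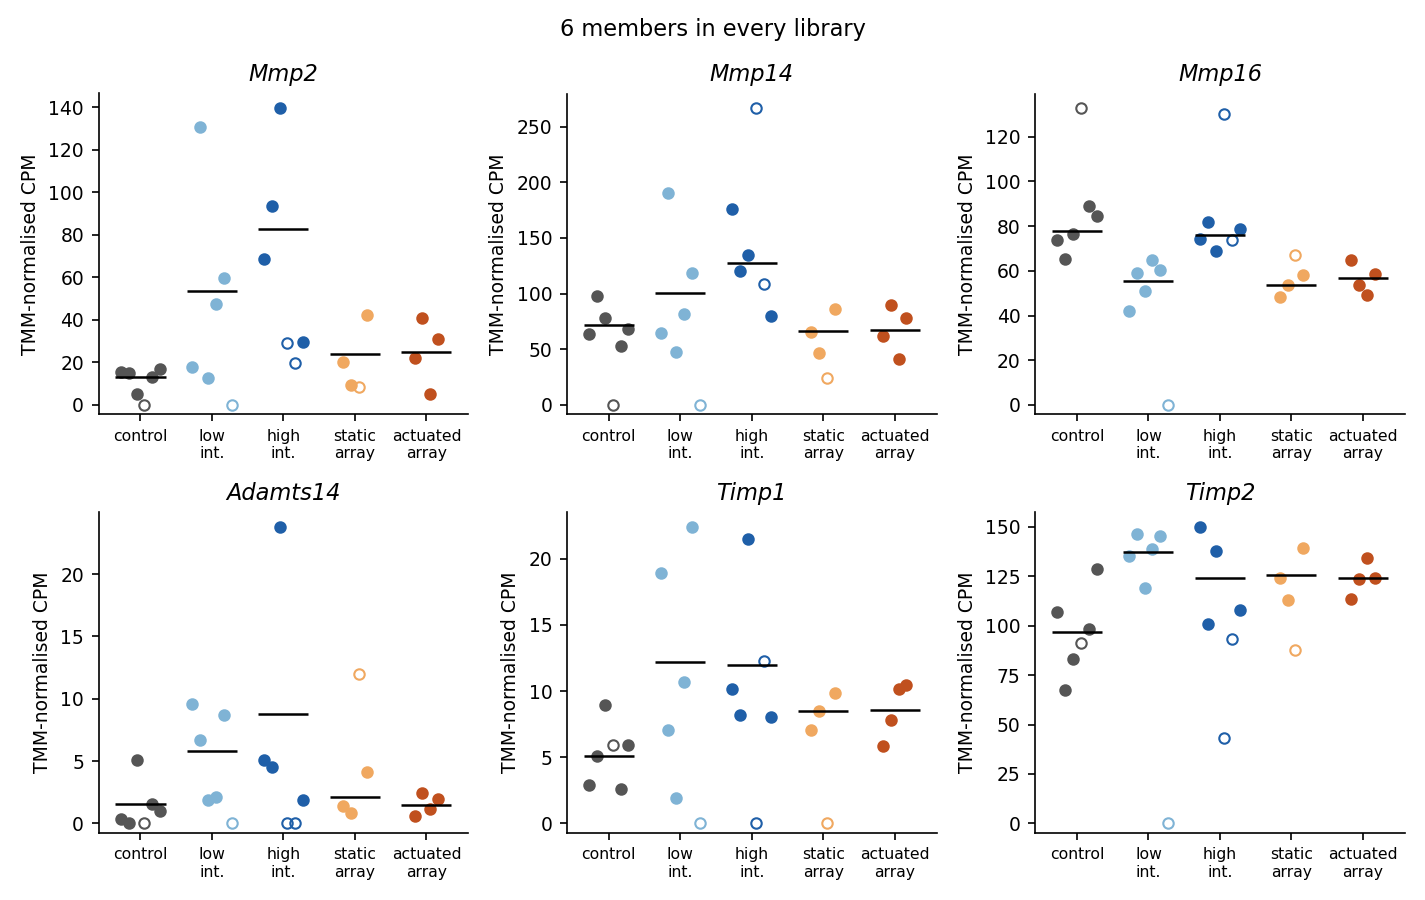
TMM-normalised CPM (vertical) of 6 members in each of the 26 libraries by group. Filled points are the 21 deeper libraries, open points the 5 shallow ones, and lines the mean of the deeper libraries; for Mmp2 the 4 filled high intensity points, 29.6 to 139.6 CPM, sit above the 5 filled control points, 5.11 to 16.7 CPM.

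Levels of mesenchymal markers varied with Mmp2 across the deeper libraries of all groups, though not within the controls. The summed level of the 10 markers in the deeper libraries was 442 to 1072 CPM in controls, 1087 to 2778 CPM at high intensity, 330.2 to 2936 CPM at low intensity, 292 to 982 CPM on the static array and 194 to 724 CPM on the actuated array. The 5 libraries with the most Mmp2 were also the 5 with the highest marker sum: high intensity replicates 1, 2 and 3 and low intensity replicates 2 and 5. The lowest Mmp2 of the actuated array (5.02 CPM, replicate 3) and of the static array (9.53 CPM, replicate 2) stood in the libraries with the lowest marker sums of those groups (194 and 292 CPM). In the controls the lowest marker sum (442 CPM, replicate 6) went with the highest Mmp2 (16.7 CPM). Control replicate 3, with the lowest Mmp2 (5.11 CPM), had a similar sum (451 CPM). At high intensity all 10 markers had a positive log2 fold change in the deeper libraries, with a median of 1.11, 6 had an unadjusted p under 0.05 and 0 passed the threshold. Relative to 1000 CPM of marker sum, Mmp2 stood at 11.3 to 37.8 CPM in controls, 27.2 to 105.0 at high intensity, 38.2 to 55.0 at low intensity, 32.6 to 58.4 on the static and 25.96 to 64.1 on the actuated array. The ranges on both arrays overlapped those of the intensity groups. Control replicate 2 and high intensity replicate 6 had nearly equal marker sums (1072 and 1087 CPM) with 14.8 and 29.6 CPM of Mmp2. Control replicate 6 and low intensity replicate 1 also had nearly equal sums (442 and 440 CPM), with 16.7 and 17.98 CPM of Mmp2. The part of mesenchymal cells in the difference was not tested. Skeletal muscle markers were low but uneven, with sums of 9.36 to 113 CPM in controls, 25.3 to 207 CPM at high intensity and 10.7 to 185 CPM at low intensity. Of these 7 markers Myod1 and Myog had no count in the controls. Ckm had none at high intensity or on the static array, and Myog none on the actuated array. The part of muscle markers was not tested either. Neuronal markers were lower, with sums of 3824 to 4221 CPM in the deeper controls, 2715 to 3966 CPM at high intensity and 2984 to 4195 CPM at low intensity. At high intensity 0 of the 7 had a positive log2 fold change (median -0.26) and 4 had an unadjusted p under 0.05, all lower; over both groups 5 of 7 did, and 0 were called. Their part in the difference was not tested.

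**Figure D3:**
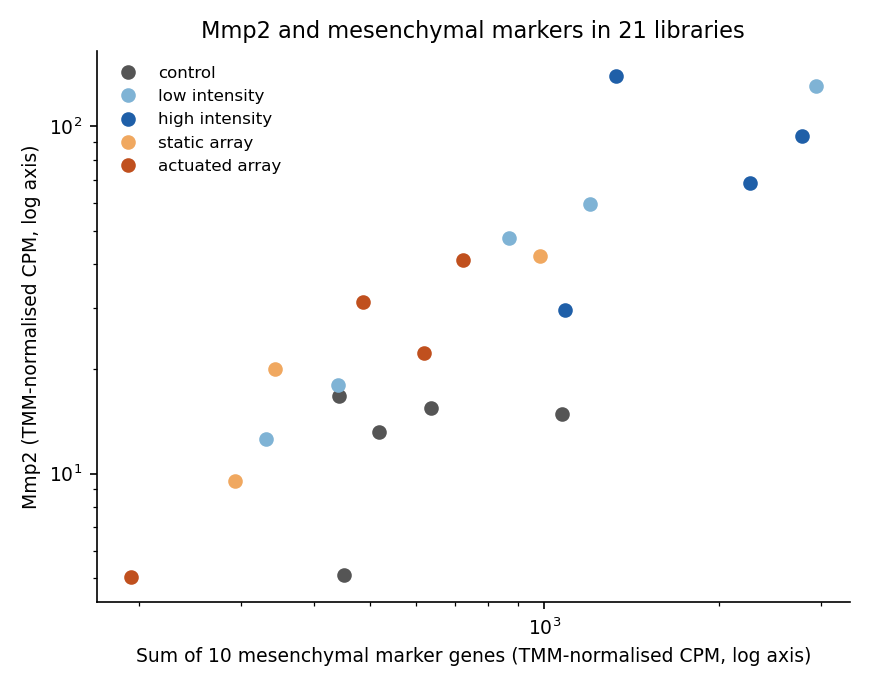
Mmp2 (vertical) against the summed level of 10 mesenchymal and fibroblast marker genes (horizontal), both in TMM-normalised CPM on log axes, for the 21 deeper libraries coloured by group. The 5 libraries at the upper right, 3 of high and 2 of low intensity, lead on both axes, and the 5 controls lie at 5.11 to 16.7 CPM of Mmp2.

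Across the family, at most 1 member was called at either intensity with all or with the deeper libraries. The share of members with an unadjusted p under 0.05 was above that of all genes in these fits, on counts that single libraries moved. At high intensity 0 of 31 tested members were called with all libraries, where 0.0402% of all genes were, and 5 (16.1%) had an unadjusted p under 0.05 where 7.04% of all genes did. With the deeper libraries 1 was called (background 0.462%) and 9 (29.0%) had an unadjusted p under 0.05 (background 15.9%), 8 of them higher and 1 lower. The median log2 fold change of the tested members was 0.33 there, beside 0.00 over all genes tested, and 20 of 31 were positive. At low intensity 0 were called with all libraries (background 0.0268%) or with the deeper ones (background 0.597%). An unadjusted p under 0.05 was reached there by 4 members (12.9%, background 5.23%) and by 7 (22.6%, background 15.2%), of which 4 were higher and 3 lower. The median of the members at low intensity was -0.09 in the deeper libraries, beside -0.01 over all genes, and 0.01 with all libraries, beside -0.05. Over both intensity groups 0 were called with all libraries (background 0.0268%) and 1 with the deeper ones (background 1.66%), and 4 (12.9%, background 7.12%) and 9 (29.0%, background 17.9%) had an unadjusted p under 0.05. Single libraries moved these counts. In the deeper libraries they fell to 3 of 28 tested at high intensity and to 5 of 28 over both groups without high intensity replicate 1. Without low intensity replicate 1 they fell to 3 of 29 at low intensity. Shares of all genes in these leave-outs are not given, so an excess of members there is not shown. With all libraries the count at high intensity was 2 without control replicate 1 and 3 without control replicate 2, 4 or 6, high intensity replicate 1 or 2, or low intensity replicate 5 or 6. It was 2 at low intensity without control replicate 1, 2, 5 or 6 or low intensity replicate 1 or 5, and 2 over both groups without control replicate 1 or high intensity replicate 3. With all libraries DESeq2 called 1 member at high intensity, 0 at low intensity and 1 over both groups, each time Mmp2, and limma voom called 0 in all 3. The backgrounds above are those of edgeR. Shares of all genes called by DESeq2 and limma voom are not given here.

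The membrane-type metalloproteinases, which act at the cell surface, had differences of either sign, none past the threshold in these fits. Mmp14, which can itself cut fibrillar collagen and together with Timp2 activates the proenzyme of gelatinase A, stood at 63.7, 98.0, 78.3, 52.7 and 67.9 CPM in the deeper controls, at 175.7, 119.9, 134.4 and 79.8 CPM at high intensity and at 64.5, 190.0, 47.3, 81.9 and 118.1 CPM at low intensity. Only high intensity replicate 6 overlapped the controls, whereas 3 of the 5 low intensity libraries lay within or below the control range. Its log2 difference at high intensity was 0.81 (SE 0.308, edgeR adjusted p = 0.19) with the deeper libraries and 1.203 (SE 0.417, edgeR adjusted p = 0.362) with all, and missed the threshold both times.

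Mmp16, a membrane-type enzyme known from the nervous system, stood at 74.0, 65.2, 76.6, 89.1 and 84.6 CPM in the deeper controls and at 42.2, 59.2, 51.2, 64.8 and 60.4 CPM at low intensity. These groups did not overlap, by a margin of less than 1 CPM between control replicate 2 and low intensity replicate 4. The log2 difference was -0.49 (SE 0.132, edgeR adjusted p = 0.0638) with the deeper libraries and -0.69 (SE 0.277, edgeR adjusted p = 0.731) with all. At high intensity Mmp16 was at 74.4, 82.0, 69.1 and 78.6 CPM, within the control range (log2 -0.04, SE 0.137, edgeR adjusted p = 0.922). Mmp15 and Mmp24, a neuronal membrane-type enzyme, had log2 differences from control between -0.28 and -0.04 in the deeper libraries at either intensity. For Mmp24 at high intensity the log2 difference was -0.28 (SE 0.134, edgeR adjusted p = 0.302).

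Among ADAMTS genes none passed the threshold at either intensity. With the deeper libraries 13 of 17 tested had a positive log2 fold change at high intensity (median 0.37) and 7 of 17 at low intensity (median -0.07). With all libraries 12 of 18 were positive at high (median 0.43) and 11 of 18 at low intensity (median 0.04), so the sign of the median at low intensity depended on the libraries used. Adamts14, a procollagen N-propeptidase, had the largest difference of the class at high intensity, on few counts. It stood at 0.322, 0, 5.11, 1.58 and 0.984 CPM in the deeper controls, at 5.08, 4.56, 23.8 and 1.85 CPM at high intensity and at 9.61, 6.67, 1.91, 2.14 and 8.74 CPM at low intensity. Control replicate 3 lay above 5 of the 9 libraries of the intensity groups, and high intensity replicate 3 alone was above 20 CPM. For high intensity edgeR gave a log2 difference of 2.45 (SE 0.881, adjusted p = 0.164), and for low intensity 1.91 (SE 0.85, adjusted p = 0.279). At low intensity Adamts16, singled out after its values were seen, had the largest difference of all tested members and in the other direction (log2 -2.31, SE 0.979, edgeR adjusted p = 0.252), on levels of 0 to 4.92 CPM in the deeper libraries of these 2 groups.

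Adamts12, which cuts cartilage oligomeric matrix protein, stood at 11.3, 14.8, 7.23, 19.0 and 11.8 CPM in the deeper controls and at 42.3, 49.7, 17.3 and 21.9 CPM at high intensity, where 3 of 4 libraries lay above all controls. Its log2 difference was 1.36 (SE 0.546, edgeR adjusted p = 0.215). The proteoglycan-cutting Adamts1 and Adamts9 were 1.40-fold and 1.51-fold of control at high intensity (edgeR adjusted p of 0.328 and 0.234), and Adamts8, of the same class, 1.65-fold (edgeR adjusted p = 0.566). Adamts10, tied to fibrillin microfibrils, was 1.56-fold of control (edgeR adjusted p = 0.378). The mesenchymal sums given above were also high in high intensity replicates 1 and 2 and low intensity replicate 2, where Adamts12 was highest (42.3, 49.7 and 44.6 CPM). High intensity replicate 3, with the highest Mmp2 (139.6 CPM) and a marker sum of 1329 CPM, had Adamts12 within the control range (17.3 CPM). The part of mesenchymal cells was not tested.

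Of the 4 TIMPs, 3 had a positive log2 difference from control at either intensity in the deeper libraries, and none passed the threshold. Timp1, a secreted inhibitor of most metalloproteinases, stood at 2.90, 5.08, 8.93, 2.64 and 5.90 CPM in the deeper controls, at 10.2, 8.20, 21.5 and 8.01 CPM at high intensity and at 18.9, 7.08, 1.91, 10.7 and 22.4 CPM at low intensity. High intensity replicates 2 and 6 fell within the control range, and low intensity replicate 3 was below every control. The log2 difference over both groups was 1.23 (SE 0.438, edgeR adjusted p = 0.133), and it passed the threshold when low intensity replicate 3 was left out (log2 1.38, edgeR adjusted p = 0.0459). Timp2, which inhibits gelatinase A and also takes part in its activation, stood at 106.8, 67.5, 83.0, 98.6 and 129 CPM in the deeper controls and at 135.5, 147, 119.1, 139 and 145.5 CPM at low intensity. Only low intensity replicate 3 overlapped the highest control. For low intensity edgeR gave a log2 difference of 0.50 (SE 0.141, adjusted p = 0.0818), for high intensity 0.35 (SE 0.149, adjusted p = 0.244) and for both groups 0.42 (SE 0.126, adjusted p = 0.0768). Over both groups Timp2 passed the threshold without control replicate 6 (log2 0.54, adjusted p = 0.0332) or high intensity replicate 6 (log2 0.46, adjusted p = 0.0489), and at low intensity without control replicate 6 (log2 0.62, adjusted p = 0.0373). Timp3, which binds to the matrix and also inhibits ADAMTS enzymes, differed from control by 0.03 (SE 0.138) at high and 0.21 (SE 0.13) at low intensity on the log2 scale. Timp4 was low (0 to 7.16 CPM in the deeper libraries), with log2 differences of -0.43 (SE 0.77) and -0.11 (SE 0.72).

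**Figure D4:**
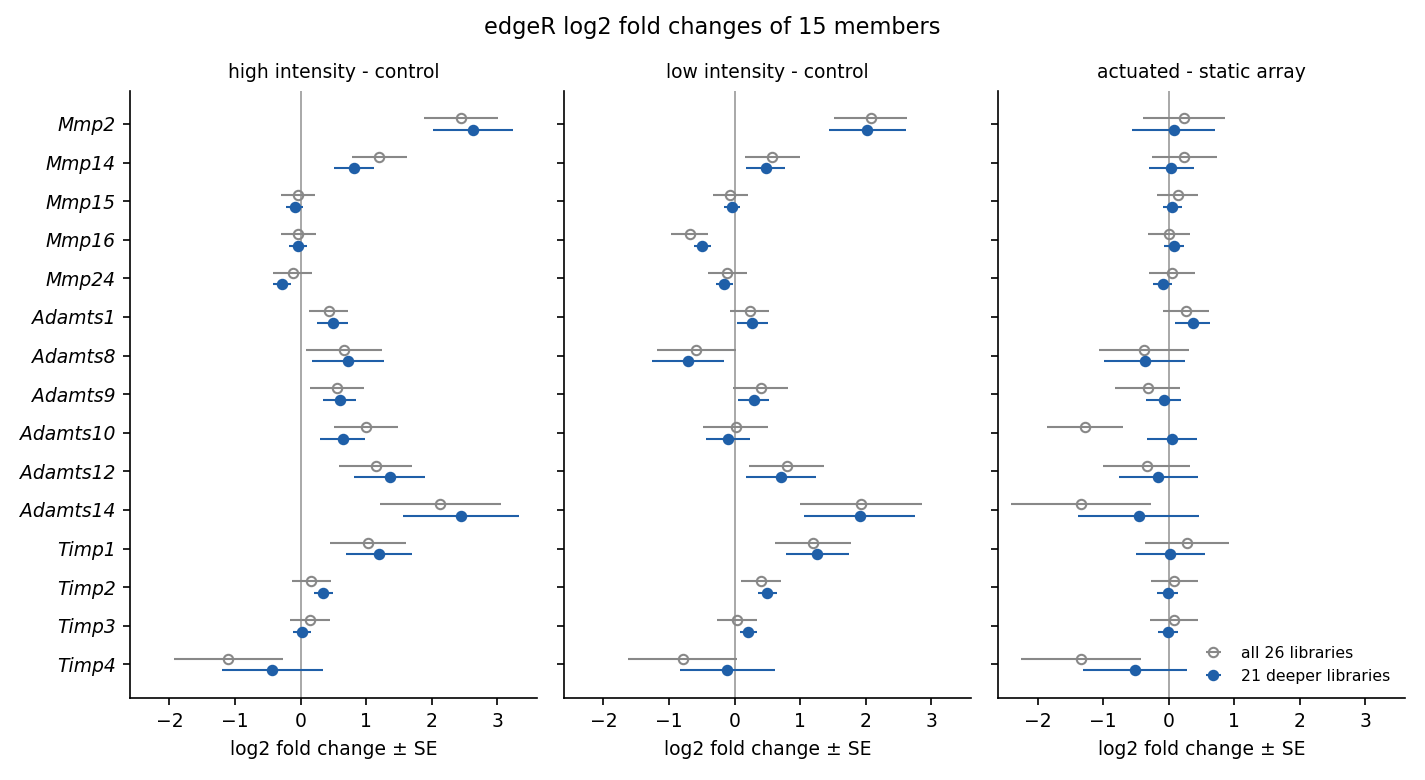
edgeR log2 fold changes (horizontal) with SE bars of 15 members, with high intensity less control on the left, low intensity less control in the middle and actuated less static array on the right; open points use all 26 libraries and filled points the 21 deeper ones. Mmp2 lies at 2.63 and 2.03 on the left and in the middle and at 0.08 on the right, and Adamts10 moves from -1.28 to 0.05 on the right once static replicate 3 is among the libraries left out.

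Actuation of the array left the family without a called member. Actuated against static, 0 of 31 tested members were called with all libraries (background 0.0%) and 0 with the deeper ones (background 0.0%). An unadjusted p under 0.05 was reached by 1 member with all libraries (background 3.86%) and by 0 with the deeper ones (background 0.38%), and DESeq2 and limma voom also called 0 members with all libraries. The 1 member was Adamts10, with a log2 difference of -1.28 (SE 0.586, edgeR adjusted p = 1.0). It stood at 9.95, 11.2, 12.3 and 15.7 CPM on the actuated array and at 13.3, 7.33, 101 and 15.1 CPM on the static array. Static replicate 3, of 613344 total counts, held the value of 101 CPM, and without it the log2 difference was 0.05. Mmp2 stood at 22.2, 41.1, 5.02 and 31.2 CPM on the actuated array and at 19.97, 9.53 and 42.3 CPM in the deeper static libraries, so that the groups overlapped throughout (log2 0.08, SE 0.632). The log2 differences of the most abundant members in the deeper libraries were -0.02 (SE 0.163) for Timp2, -0.01 (SE 0.153) for Timp3, 0.04 (SE 0.342) for Mmp14 and -0.09 (SE 0.145) for Mmp24. Timp4, which had the second smallest p with all libraries, differed by -1.34 (SE 0.918, edgeR adjusted p = 1.0) there and by -0.51 (SE 0.792, edgeR adjusted p = 1.0) in the deeper libraries. The median of the tested members was -0.03 in the deeper libraries, beside -0.00 over all genes, and -0.33 with all libraries, beside -0.02. With all libraries 18 of 31 members had a negative value, among them 15 of 18 ADAMTS genes (median -0.49), beside 7917 of all 14907 genes tested. Without static replicate 3 these medians were -0.04 for the members and -0.07 for the ADAMTS genes, of which 11 of 18 were negative. Within the deeper libraries the median of the members was 0.20 without static replicate 4 (7 of 33 negative). It was -0.14 without static replicate 2 (24 of 33 negative), so its sign depended on single libraries.

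High against low intensity gave no called member with all libraries (background 0.0%) or with the deeper ones (background 0.0%), and DESeq2 and limma voom called 0 with all libraries. An unadjusted p under 0.05 was reached by 2 members with all libraries (background 2.91%) and by 4 with the deeper ones (background 7.68%), all 4 higher at high intensity. Mmp16 did not overlap between these groups (69.1 to 82.0 CPM at high and 42.2 to 64.8 CPM at low intensity in the deeper libraries), with a log2 difference of 0.45 (SE 0.139, edgeR adjusted p = 0.395). Adamts8 stood at 18.6, 40.1, 9.34 and 4.00 CPM at high intensity and at 7.44, 12.9, 1.91, 4.98 and 5.32 CPM at low intensity, with overlap (log2 1.44, SE 0.567, edgeR adjusted p = 0.574). For Mmp2 the log2 difference between the intensities was 0.60 (SE 0.559, edgeR adjusted p = 0.848). Its call at high and not at low intensity is thus no shown difference between them.

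The static array and the biochemical controls, which belong to different arms, were also set side by side. No member was called with all libraries (background 0.0134%) or with the deeper ones (background 0.713%), and 0 (background 5.27%) and 3 (background 12.6%) had an unadjusted p under 0.05. DESeq2 called 0 with all libraries, and limma voom called 1, Mmp16, for which the share of all genes called by limma voom is not given here. Mmp16 was at 48.5, 53.5 and 58.3 CPM in the deeper static libraries, below the lowest control of 65.2 CPM (log2 -0.55, SE 0.149, edgeR adjusted p = 0.0773). On the actuated array it stood at 64.8, 53.8, 49.1 and 58.5 CPM. Thus its level was between 42.2 and 64.8 CPM in the deeper libraries of low intensity, static and actuated groups and between 65.2 and 89.1 CPM in those of control and high intensity. The 2 ranges nearly touch, at 64.83 CPM (actuated replicate 1) and 65.19 CPM (control replicate 2). Static replicate 3, a shallow library, stood at 66.9 CPM, inside the upper range. This grouping was drawn after the values were seen, and the share of all genes that separate likewise is not given. Adamts10, which had the second smallest p with all libraries, was at 0.94 (SE 0.542, edgeR adjusted p = 1.0) there and at -0.54 (SE 0.378, edgeR adjusted p = 0.594) in the deeper libraries, where static replicate 3 is left out. The other 2 members were Mmp15 (log2 0.29, SE 0.135, edgeR adjusted p = 0.376) and Timp2 (log2 0.36, SE 0.158, edgeR adjusted p = 0.336). Glial and motor neuron markers also differed between these groups. All 5 oligodendrocyte lineage markers were positive in the deeper libraries (median log2 1.86, 3 with an unadjusted p under 0.05), with sums of 195.3 to 505.2 CPM on the static array and 72.2 to 156.6 CPM in controls. Of 7 radial glia and astrocyte markers 6 were positive (4 with an unadjusted p under 0.05), with sums of 3909 to 4710 and 2465 to 3393 CPM. Of 6 motor neuron markers tested 5 were negative, and Slc5a7, which codes for the choline transporter, was called lower (log2 -1.88, SE 0.315, edgeR adjusted p = 0.00392); the sums were 82.8 to 101.0 and 119.1 to 182.9 CPM. Their part in the differences of Mmp16, Mmp15 and Timp2 was not tested.

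Of 24 activators and regulators of these proteases, 20 were tested and 1 passed the threshold, Plau, at low intensity and over both groups (background 0.0268% for either with all libraries, 0.597% and 1.66% with the deeper ones). Plau codes for urokinase, which makes plasmin, an activator of several pro-metalloproteinases. It rose at low intensity (log2 3.52, SE 0.647, edgeR adjusted p = 0.019) and over both groups (log2 3.01, SE 0.609, edgeR adjusted p = 0.0219) with the deeper libraries, and with all libraries too (edgeR adjusted p of 0.00938 and 0.0185). The first of these calls was lost in the deeper libraries when low intensity replicate 1 or 5 was left out and the second when control replicate 3 was (adjusted p up to 0.0608); with all libraries low intensity replicate 5 was needed for both (adjusted p up to 0.26 without 1 library), and control replicates 2, 3 and 4 for the second. It stood at 1.70 to 4.26 CPM in the deeper controls, 5.85 to 23.2 CPM at high intensity and 4.58 to 108.3 CPM at low intensity, without overlap with the controls. At high intensity it missed the threshold (log2 2.50, SE 0.668, edgeR adjusted p = 0.0741). Of 22 matrix proteins that these enzymes cut or trim, 20 were tested, and with the deeper libraries 1 was called higher at high intensity (background 0.462% in either direction) and 4 over both groups (background 1.66%), none lower. The 4 were basement membrane genes: Lamb1 (log2 1.24, SE 0.296), Lamc1 (0.51, SE 0.114), Nid1 (1.69, SE 0.385) and Hspg2, which codes for perlecan (1.56, SE 0.372), with edgeR adjusted p of 0.0338 to 0.0398 over both groups. The calls of Lamb1, Lamc1, Nid1 and Hspg2 over both groups were lost in 11, 5, 6 and 11 of the 21 leave-outs, each time including control replicates 3 and 5, low intensity replicates 1 and 2 and 1 or 2 high intensity libraries (adjusted p up to 0.0804). Lamc1 was the one called at high intensity (log2 0.62, SE 0.134, edgeR adjusted p = 0.042), a call lost in 10 of 21 leave-outs, 3 of them high intensity and 3 control libraries (adjusted p up to 0.128). With all libraries none of the 20 was called in any of the 6 comparisons. The lowest Nid1 value at low intensity (47.3 CPM) was below every control (61.7 to 88.2 CPM), while all 4 high intensity libraries were above them (145.4 to 415.9 CPM).

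Several members share their place in the genome with other genes, which bears on their counts because no source used here says whether reads were counted by strand. In the GRCm38 annotation, exons of 13 of the 46 members overlap those of another gene, among them Mmp24, Adamts8, Adamts9, Timp3 and Timp4. Timp1 lies inside Syn1, Timp3 inside Syn3 and Timp4 inside Syn2, each on the opposite strand. Exons overlap in the latter 2 pairs and not between Timp1 and Syn1. Syn2 (39.9 to 96.8 CPM in the deeper control, high and low intensity libraries) exceeded Timp4, whereas Syn3 (10.7 to 28.3 CPM) was far below Timp3 (148.9 to 222.4 CPM) in these groups. If reads were counted without strand, those from shared exons cannot be told apart.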

How the data were processed

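Total RNA was sequenced as paired reads after rRNA-derived fragments had been cleaved, per the labels' protocols. The authors deposited estimated counts, written as whole numbers and not scaled for depth, and TPM values that sum to 1000000 per library. The submitters' processing notes name BWA 0.7.12-r1039, bedtools 2.25.0, STAR and Salmon and the builds mm10, hg19 and GRCm39 without roles, so coordinates are printed only with RefSeq sequences of GRCm38.p6. Counts were fitted as deposited with edgeR 4.0.16 (R 4.3.3): all 26 libraries in 1 model with a coefficient per group, filterByExpr, TMM scaling, the quasi-likelihood F-test and Benjamini-Hochberg adjustment over all genes in each of 6 comparisons; the same was done on the 21 deeper libraries. Levels in CPM use the TMM factors of the fit on all 26 libraries, whereas the fit on the deeper libraries had its own. The former ran from 0.233 (control replicate 4) to 36.7 (low intensity replicate 6). Procedures were tested on simulated data. All 325 library pairs differed by more than sampling noise (chi-square per degree of freedom of at least 4.74, about 1 being expected). Members and gene lists were chosen with earlier results of these data known.

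Members were named with values if called with all or with the deeper libraries, if their mean was at least 5 TPM, if they had 1 of the 2 smallest p-values of a comparison, or if their unadjusted p was under 0.05 with all libraries; Mmp3, Mmp10 and the ratio of Mmp2 to marker sum were added after values were seen. Alternatives were no filter, at least 1 CPM in 4 libraries, DESeq2 size factors, DESeq2 1.42.0, limma 3.58.1 (voom with quality weights, and log2(TPM + 1) or log2(TPM + 0.1)), only the groups compared, a replicate block, a threshold of 0.1 and leaving out each library. Leaving out libraries of groups outside a comparison was chosen after seeing the data. Intervals and limits from counts cover counting error only. Protein sequences were not used here.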

Additional observations from a re-analysis of the deposited data

Results flagged for a closer look

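The 15 named members were checked for single libraries far from the others of their group, in the 60 sets of 4 or 5 deeper libraries. The gap test used (Dixon, at 95%) flags about 1 in 20 sets by chance, and 5 of the 60 stood out. High intensity replicate 3 was far above the others of its group for Adamts14 (23.8 CPM against 1.85 to 5.08) and for Timp1 (21.5 CPM against 8.01 to 10.2). The same library held 27 of the 28 counts of Mmp3 and the highest Mmp2 of all. Adamts12 was far lower in actuated replicate 3 (3.01 CPM) than in the other actuated libraries (11.2 to 12.9), and that library also had the lowest mesenchymal marker sum (194 CPM). Adamts8 was highest in actuated replicate 2 (9.30 CPM against 3.22 to 4.26). Mmp24 was lowest in control replicate 5 (91.7 CPM against 122.5 to 133.5 in the other controls).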

How the results depend on the processing

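Counts of called members were 0 in all 6 comparisons with all libraries. At high intensity and over both intensity groups the count was 1 without the low-count filter, with DESeq2, at a threshold of 0.1 and in the deeper libraries, and over both groups also with only the groups compared; at low intensity it was 1 without the filter and with only the groups compared; static against control it was 1 with limma voom. Leaving out 1 library at a time gave 0 to 1 at high intensity and over both groups with all libraries, 0 to 1 at high and at low intensity with the deeper ones, and 0 to 2 over both groups with the deeper ones. Of 354 alternatives to the 12 counts, 310 stayed within 1.5 times the count and 44 did not. Shares of all genes called are given above only for edgeR with all and with the deeper libraries. Replicate numbers of the labels were not shown to pair the libraries. The correlations below cannot exclude a pairing, because those of unequal numbers are not set beside them. With all libraries deviations of equal numbers correlated at -0.03 to 0.14 between actuated and static (over 0.1 in 2 of 4 pairs), at -0.04 to 0.06 between control and high, -0.10 to 0.25 between control and low, -0.22 to 0.15 between high and low intensity and -0.12 to 0.06 between control and static (over 0.1 in 0, 1, 1 and 0 pairs); in the deeper libraries the highest was 0.18, between actuated and static, with 2 of 3 pairs over 0.1. With the replicate number as a block the counts were 0 in the deeper libraries at high intensity and over both groups (Mmp2 log2 2.80, adjusted p = 0.0739, and 2.15, adjusted p = 0.0894). The value of Adamts10 in actuated against static ran from -1.69 (without static replicate 2) to 0.0474 (without static replicate 3) over the leave-outs with all libraries, and changed sign to 0.0518 in the deeper libraries and 0.1137 with limma voom; within the deeper libraries it ran from -0.2106 (without static replicate 2) to 0.2627 (without static replicate 4) and was -0.0878 without actuated replicate 4. DESeq2 size factors moved the median of all genes by -0.12 in actuated against static and by 0.14 in static against control, and log2(TPM + 1) moved it by 0.65 in the latter. In static against control Adamts10 ran over the leave-outs with all libraries from -0.3736 (without static replicate 3) to 1.3463 (without static replicate 2) and changed sign to -0.5411 in the deeper libraries and -0.1999 with limma voom, and Mmp16 to 0.6171 and 0.655 with log2(TPM + 1) and log2(TPM + 0.1), where all genes shifted upward. None of the other values followed across the alternatives changed sign; values of members named for their level alone were not followed. Counts of members at an unadjusted p under 0.05 ran over the leave-outs from 0 to 4 with all and 2 to 6 with the deeper libraries in high against low intensity (lowest in the deeper ones without high intensity replicate 1 or 2 or low intensity replicate 1 or 3), and from 0 to 2 and 1 to 4 in static against control (lowest in the deeper ones without control replicate 2 or static replicate 4). The cause of the other differences was not tested. Depth limits members under about 1 CPM in the biochemical libraries, where a count of 3 stands for 0.755 to 1.93 CPM in the deeper ones.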
